A study of Mus musculus with 6 samples.

Results

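Immediate-early genes are switched on within minutes of neuronal firing, before any new protein is made, and their low level at rest makes them a common readout of recent activity in brain tissue. The set described here held 10 such genes, 9 transcription factors (Fos, Fosb, Junb, Egr1, Egr3, Npas4, Nr4a1, Nr4a2 and Nr4a3) and Arc, which were found by symbol among 32531 gene rows. All 10 passed the filter on low counts and were among the 16496 genes tested. Ribosome-bound RNA had been profiled from the thalamus of untreated adult control mice of the line Slc17a6-EGFP/Rpl10a (JX883) by translating ribosome affinity purification, in which ribosomes carrying an EGFP-tagged Rpl10a are pulled down with antibodies against EGFP. The line takes its name from Slc17a6, which encodes the vesicular glutamate transporter VGLUT2, and every library came from it, so the controls carried the tag too. There were 3 immunopurified libraries (IP) and 3 of thalamic Input, numbered 1 to 3 in each group, and same-numbered libraries shared a sequencing lane, so an effect of lane cannot be told apart from one of replicate number. The labels do not give the cells that carry the tag, the sex of the mice, the number pooled or whether replicates were separate animals, so p-values measure only the spread between these libraries, which may be technical.

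The members act at different steps. Calcium entry and kinase signalling act on CREB, SRF and MEF2 proteins already bound at their promoters. FOS and JUN proteins pair to form the AP-1 factor, EGR proteins are zinc-finger factors, NPAS4 pairs with ARNT proteins and is induced mainly by calcium entry, and the NR4A proteins are orphan nuclear receptors. Arc is an effector, whose mRNA is carried into dendrites and whose protein promotes the removal of AMPA receptors from synapses.

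Gene reads ranged from 44081149 to 54421395 per library, and 3 reads stood for 0.0551 to 0.0681 CPM (counts scaled to library size). All levels below are CPM after TMM scaling unless said otherwise. Slc17a6 was higher in IP than in Input in 3 of 3 same-numbered pairs, and fitted at log2 1.27 ± 0.68 (SE; edgeR adjusted p = 0.206) without a block and 1.52 ± 0.19 (edgeR adjusted p = 0.000246) with the replicate number as a block, where it passed. Markers of glia, vessels and inhibitory neurons were low in IP, with 10 of 10 tested oligodendrocyte genes called lower, 9 of 10 astrocyte, 9 of 10 microglial, 5 of 10 endothelial, 4 of 8 mural and 6 of 11 GABAergic neuron genes, and 0 called higher. Median log2 fold changes of these lists lay between -4.90 for microglia and -3.02 for mural cells. Input replicate 3 stood apart in markers of other regions. Relative to the mean of Input replicates 1 and 2, its median ratio was 5.60 over 7 tested choroid plexus and ependymal genes, 4.40 over 13 cortical and hippocampal genes, 4.11 over 11 striatal genes, 0.528 over 12 thalamic genes and 0.338 over 7 habenula genes. In these bulk samples, fewer cells of a type and less RNA per cell cannot be told apart.

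Promoter sequences are shown for the members that passed the test in opposite directions and have an entry, Fos (higher in IP) and Nr4a2 (lower in IP). Each run is the 250 bases before the transcription start, 5′ to 3′ on the gene's own strand, from RefSeq on GRCm38.p6. Capitals mark TGACG on either strand (read as CGTCA on the other), which is the core of the CREB-binding site, and TATAAA on either strand (read as TTTATA on the other).

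Fos, chr12:85473640-85473889, plus strand: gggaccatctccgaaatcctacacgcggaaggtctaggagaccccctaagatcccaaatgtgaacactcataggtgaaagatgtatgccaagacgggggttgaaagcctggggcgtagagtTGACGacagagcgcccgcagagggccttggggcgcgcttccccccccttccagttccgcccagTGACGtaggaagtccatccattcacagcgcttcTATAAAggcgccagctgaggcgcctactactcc
Nr4a2, chr2:57124004-57124253, minus strand: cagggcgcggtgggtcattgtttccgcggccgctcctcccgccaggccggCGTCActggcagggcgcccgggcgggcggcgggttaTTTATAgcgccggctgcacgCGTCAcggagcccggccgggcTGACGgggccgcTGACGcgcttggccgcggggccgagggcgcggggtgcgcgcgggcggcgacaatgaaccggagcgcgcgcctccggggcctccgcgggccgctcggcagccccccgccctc

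RefSeq windows were found for 7 of the 10 members, and Egr1, Egr3 and Arc had no entry. TGACG lay in 7 of 7 of these windows, against 17.8% of 32851 RefSeq windows of 250 bases. The windows compared were not matched for base composition, and the members' windows held 58.4% to 80.0% G and C. The difference therefore cannot be told apart from one of base composition. The Fos window held it 129 and 66 bases before the start, with TATAAA 33 bases before it. The Nr4a2 window held the core 200, 144, 123 and 111 bases before the start, and it had a base composition of 80.0% G and C against 58.4% for Fos. The full palindrome TGACGTCA, which contains the core, was in 0 of 7 member windows and 1.55% of all. The AP-1 letters TGACTCA were in 0 of 7 against 4.46%, the CArG box bound by SRF in 0 of 7 against 1.47%, and the EGR letters GCGGGGGCG in 2 of 7 (Fosb and Nr4a1) against 2.57%. Both strands were searched for each. Bases outside these 250 were not searched, so a count of 0 does not show that a promoter lacks the site. The core was thus shared by members that were higher and by members that were lower in IP, and the letters say nothing about occupancy.

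Of the 10 members, 1 was higher in IP (Fos) and 2 were lower (Nr4a2 and Arc) by edgeR's quasi-likelihood test at an adjusted p under 0.05, beside 9.6% of all 16496 tested genes called higher and 15.6% called lower. The median log2 fold change of the 10 was -0.07, against -0.04 over all tested genes. By same-numbered pair, Fos and Fosb were higher in IP in 3 of 3 pairs, and Npas4, Nr4a2 and Arc were lower in 3 of 3, as were 30.3% and 33.7% of tested genes. The IP and Input values did not overlap for Fos, with IP above (19.9% of tested genes), nor for Npas4, Nr4a2 and Arc, with IP below (25% of tested genes). These shares lie near those of all genes, so the counts do not set the members apart. The members went both ways.

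**Figure D1:**
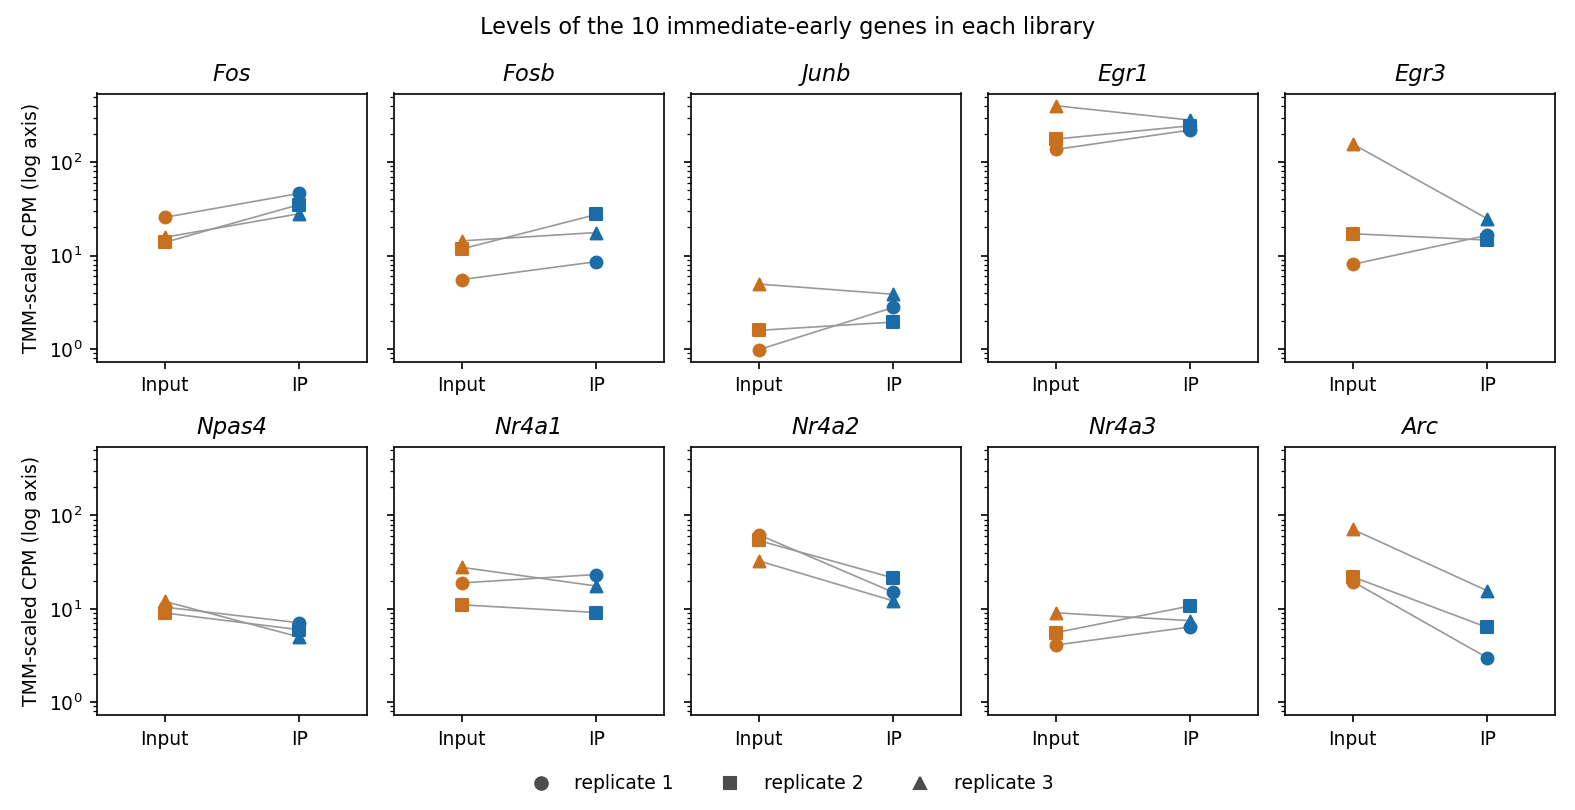
TMM-scaled CPM (log axis) of each member in the 3 Input and 3 IP libraries, with lines joining libraries of the same replicate number. Fos lies higher in IP and Nr4a2 and Arc lower for every pair, while Egr3 reaches 157 CPM in Input replicate 3 alone.

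Fos, the founding AP-1 subunit, lies on chromosome 12 from 85473890 to 85477273 (GENCODE M21 on GRCm38, the assembly of mm10). It had 25.6, 13.8 and 15.7 CPM in Input replicates 1, 2 and 3 and 46.3, 35.2 and 28.1 CPM in IP. Every IP library was above every Input library, and the IP level was 1.81, 2.54 and 1.79 times the Input level in pairs 1, 2 and 3. The fitted log2 fold change was 0.99 ± 0.30 (SE; edgeR adjusted p = 0.0423). With the replicate number as a block it was 1.01 ± 0.21 (edgeR adjusted p = 0.00430), with 2 residual degrees of freedom. The call of the fit without a block ended without IP replicate 1, IP replicate 2, Input replicate 2 or Input replicate 3 (edgeR adjusted p = 0.118, 0.0930, 0.137 and 0.0916). It also ended without replicate 2 or replicate 3 of both groups (0.265 and 0.0769), and with upper-quartile scaling. Over 19 alternatives the log2 fold change stayed between 0.79 and 1.31.

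Fosb, the close paralogue of Fos, had 5.52, 11.7 and 14.4 CPM in Input and 8.60, 27.5 and 17.6 CPM in IP. The groups overlapped because replicate 1 was the lowest library of each group, and within pairs IP was 1.56, 2.34 and 1.23 times Input. The fitted value of log2 0.77 ± 0.48 (SE) did not pass (edgeR adjusted p = 0.277). With the replicate number as a block it was 0.72 ± 0.28 and did not pass either (edgeR adjusted p = 0.0673).

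Junb, the AP-1 partner in the set, was the scarcest member, with 45 to 218 reads in Input and 103 to 209 in IP. It had 0.979, 1.58 and 4.95 CPM in Input and 2.78, 1.94 and 3.84 CPM in IP, so the groups overlapped and the pairs went both ways. Its fitted log2 value of 0.19 ± 0.68 (SE) missed the threshold (edgeR adjusted p = 0.869) and was 1.17 without Input replicate 3. Junb was the only member whose annotated span overlaps another gene, Prdx2 on the other strand, so some of its reads may have been counted as ambiguous or to the neighbour.

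Egr1, the most abundant member, had 137, 177 and 403 CPM in Input and 221, 246 and 283 CPM in IP. The IP libraries lay within 1.28 times of each other while the Input libraries spanned 2.95 times. IP was 1.62 and 1.39 times Input in pairs 1 and 2 and 0.701 times in pair 3, and over all libraries the fitted value of log2 0.06 ± 0.36 (SE) missed the threshold (edgeR adjusted p = 0.919). Leaving out Input replicate 3 gave 0.68, which passed (edgeR adjusted p = 0.0463), and leaving out the whole of replicate 3 gave 0.58, which did not (edgeR adjusted p = 0.134). A fit of the 4 libraries of replicates 1 and 2 with the replicate block gave 0.59 (edgeR adjusted p = 0.00386), with 1 residual degree of freedom.

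Egr3, a target of other immediate-early factors as well as of activity, lies on chromosome 14 from 70077203 to 70082614. It had 8.05, 17.1 and 157 CPM in Input and 16.5, 14.6 and 24.8 CPM in IP. Input replicate 3 alone stood far above the rest, at 12.5 times the mean of Input replicates 1 and 2, higher than the ratio of 99.6% of tested genes. In pair 1 IP was 2.05 times Input, in pair 2 it was 0.854 times and in pair 3 0.158 times. The fitted value of log2 -1.70 ± 0.91 (SE) did not pass (edgeR adjusted p = 0.207), and it took the other sign when Input replicate 3 was left out, at 0.58 (edgeR adjusted p = 0.321).

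Npas4, the most neuron-restricted factor of the set, had 10.4, 9.03 and 12.01 CPM in Input and 7.08, 5.96 and 4.98 CPM in IP. The groups did not overlap, and IP was 0.679, 0.660 and 0.415 times Input in the pairs. The fitted value, log2 -0.80 ± 0.31 (SE), missed the threshold (edgeR adjusted p = 0.0943). DESeq2 called it lower (adjusted p = 0.0354), where 19.8% of tested genes were called lower, and over the 19 alternatives the adjusted p ran from 0.0354 to 0.324.

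The 3 NR4A receptors differed from each other. Nr4a1 (Nur77) had 18.9, 11.0 and 27.8 CPM in Input and 23.3, 9.12 and 17.5 CPM in IP, with overlapping groups. Its fitted log2 value of -0.21 ± 0.42 (SE) missed the threshold (edgeR adjusted p = 0.758). Replicate 2 was the lowest library for Nr4a1 in each group, and the pairs went both ways.

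Nr4a3 (Nor1) had 4.09, 5.55 and 9.06 CPM in Input and 6.39, 10.7 and 7.45 CPM in IP. IP was higher in pairs 1 and 2, at 1.56 and 1.94 times Input, and lower in pair 3, at 0.822 times. Its log2 value of 0.39 ± 0.41 (SE) missed the threshold (edgeR adjusted p = 0.522).

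Nr4a2 (Nurr1), a receptor known for its role in midbrain dopamine neurons and present in several other neuron types, lies on chromosome 2 from 57106830 to 57124003. It had 62.3, 53.9 and 32.7 CPM in Input and 15.0, 21.4 and 12.1 CPM in IP. Every IP library was below every Input library, and the Input mean was 3.07 times the IP mean. The fitted value was log2 -1.62 ± 0.31 (SE; edgeR adjusted p = 0.00743). With the replicate number as a block it was -1.61 ± 0.22 (edgeR adjusted p = 0.000354). The call passed in 18 of 19 alternatives. The exception was the fit without both libraries of replicate 2 (-1.81; edgeR adjusted p = 0.0582). Nr4a2 was the only member besides Fos that was lower in Input replicate 3 than in the mean of the other Inputs, at 0.563 times. Across Input the habenula and the thalamic list were lowest in replicate 3 as well. Their summed levels in Input replicates 1, 2 and 3 were 295, 178 and 96.8 CPM and 7821, 4852 and 2701 CPM. In IP the habenula list was low, at 29.5 to 37.8 CPM with 4 of 7 genes called lower and none at 0 in every IP library. The thalamic list had 7459 to 11987 CPM in IP, with 5 of 12 genes called higher, 0 lower and a median log2 fold change of 0.97. Its sum was higher in IP within each pair, but IP replicate 3 lay below Input replicate 1. Slc17a6 alone had 6489, 2193 and 2200 CPM in IP replicates 1, 2 and 3. The endothelial list, low in IP (2.23 to 3.51 CPM), was lowest in Input replicate 3 too. It had 21.2, 16.9 and 13.5 CPM in Input replicates 1, 2 and 3. The astrocyte list was also low in IP (308 to 790 CPM against 1351 to 2849 CPM in Input). Its sum was lowest in Input replicate 2, at 1351 CPM against 1445 CPM in replicate 3. The median ratio of Input replicate 3 to the mean of the other Inputs was 0.668 for astrocyte and 0.501 for endothelial genes. The part of habenular, glial, endothelial and GABAergic cells in the Nr4a2 result was not tested.

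Arc lies on chromosome 15 from 74669083 to 74672570 and was the member with the most negative log2 fold change. It had 19.6, 22.0 and 71.1 CPM in Input and 2.98, 6.30 and 15.6 CPM in IP. No IP library reached the lowest Input library, and Input replicate 3 and IP replicate 3 were each the highest of their group, at 3.42 and 3.36 times the mean of replicates 1 and 2 of that group. IP was 0.152, 0.286 and 0.219 times Input in the pairs. The log2 fold change was -2.18 ± 0.67 (SE; edgeR adjusted p = 0.0443). Fitted with the replicate block it was -2.23 ± 0.25 (edgeR adjusted p = 0.000115). Arc was thus low in IP relative to its own Input also in the pairs of replicates 1 and 2, where its level was lower in both groups. The GABAergic neuron list, low in IP too, had its highest level in replicate 3 of each group, with summed levels of 850, 993 and 1441 CPM in Input and 112, 166 and 267 CPM in IP, and none of its 11 tested genes was at 0 in every IP library. This was not particular to that list, as the striatal, mural and choroid plexus lists were also highest in replicate 3 of each group. The choroid plexus and ependymal list had 47.8, 47.3 and 1237 CPM in Input and 4.30, 6.13 and 47.8 CPM in IP. The mural list had 37.1, 33.7 and 47.4 CPM in Input and 3.79, 3.87 and 4.25 CPM in IP. The oligodendrocyte list had 3939 to 5629 CPM in Input and 180 to 323 CPM in IP, and the microglial list 61.9 to 93.4 and 2.56 to 5.11 CPM, with the microglial marker Trem2 at 0 reads in every IP library. The part of these cells in the Arc result was not tested.

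The Arc call of the fit without a block ended without IP replicate 1 or 2 or Input replicate 2 or 3 (edgeR adjusted p = 0.0969, 0.133, 0.0568 and 0.142) and without replicate 1 or 2 of both groups (0.0529 and 0.163), with log2 fold changes between -3.01 and -1.32 over all fits that left out libraries. Leaving out Input replicate 3 alone gave -1.32, and leaving out the whole of replicate 3 gave -2.15, which passed (edgeR adjusted p = 0.0167).

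**Figure D2:**
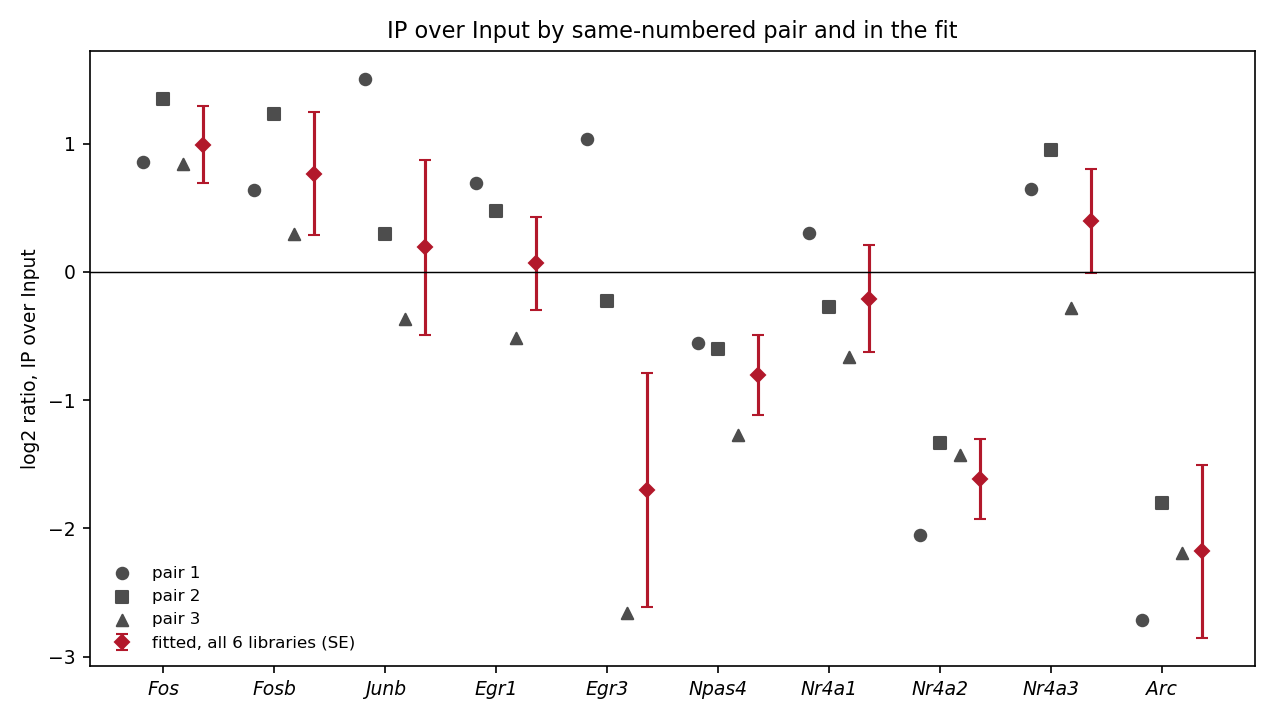
Log2 ratio of IP over Input CPM in each same-numbered pair (grey symbols) and the fitted log2 fold change over all 6 libraries with its SE (red). Nr4a2 and Arc lie below 0 in 3 of 3 pairs, Fos lies above 0 in 3 of 3, and the Egr3 pairs range from 1.03 to -2.66.

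Levels of different genes were compared per kilobase of merged exons (CPM per kb). In IP the order was Egr1 with 55.8 ± 6.87 CPM per kb (SD, n = 3), Fos with 15.5 ± 3.92, Nr4a1 with 4.75 ± 2.03, Egr3 with 4.23 ± 1.23, Nr4a2 with 3.98 ± 1.16, Fosb with 2.87 ± 1.52, Arc with 2.71 ± 2.14, Npas4 with 1.45 ± 0.253, Nr4a3 with 1.37 ± 0.379 and Junb with 1.24 ± 0.415. The Egr1 and Fos ranges overlapped with those of no other member in IP, and every later neighbour overlapped with the next. In Input the order began with Egr1 at 53.3 ± 32.1 CPM per kb, Egr3 at 13.8 ± 18.9, Arc at 12.3 ± 9.51, Nr4a2 at 12.2 ± 3.76 and Fos at 7.81 ± 2.70, and the ranges of these neighbours overlapped. Nr4a1 followed at 5.49 ± 2.39, Npas4 at 2.54 ± 0.361, Fosb at 1.69 ± 0.727, Junb at 1.09 ± 0.931 and Nr4a3 at 1.04 ± 0.427, and of these neighbours only Nr4a1 and Npas4 did not overlap. Arc was thus in place 3 by mean level in Input and in place 7 in IP, and Fos in place 5 in Input and 2 in IP.

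The comparison among Input libraries separated the members in another way. The ratio of Input replicate 3 to the mean of Input replicates 1 and 2 was at least 2 for 4 of 10 members (Egr3, Junb, Arc and Egr1), where 10.8% of tested genes reached it, and the median over the members was 1.87 against 0.967 over all tested genes. The ratios were 12.5 for Egr3, 3.88 for Junb, 3.42 for Arc and 2.57 for Egr1. Nr4a3, Nr4a1 and Fosb followed with 1.88, 1.86 and 1.66, Npas4 had 1.24 (at least 1.5 for 7 of 10 members against 20.1% of tested genes), and Fos and Nr4a2 had 0.794 and 0.563. This is 1 library against 2 of the same group and has no test, and the members were chosen with this pattern known.

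Markers of cortex and striatum moved with that library. Of 13 tested cortical and hippocampal genes 8 were highest in Input replicate 3, as were 11 of 11 striatal genes and 6 of 7 choroid plexus and ependymal genes. The transcription factor gene Fezf2, of deep cortical layers, had 0.109, 0.491 and 35.2 CPM in Input replicates 1, 2 and 3. Summed over its list, the cortical and hippocampal level was 1227, 2144 and 2738 CPM in Input and 2181 to 3027 CPM in IP, most of it from Camk2n1 (750 to 2075 CPM in Input and 1469 to 2493 CPM in IP), a gene that is not restricted to cortex. The cortical factor genes Neurod6, Neurod2, Fezf2 and Tbr1 had at most 12.8 CPM in IP. The striatal level was 265, 406 and 1270 CPM in Input and 354 to 420 CPM in IP. No gene of these 2 lists was at 0 in every IP library. In IP replicate 3, where Arc was highest, the cortical gene Neurod2 had 12.8 CPM against 0.243 and 0.771 CPM in IP replicates 1 and 2. The part of these cells in the levels of Egr3, Junb, Arc and Egr1 was not tested.

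**Figure D3:**
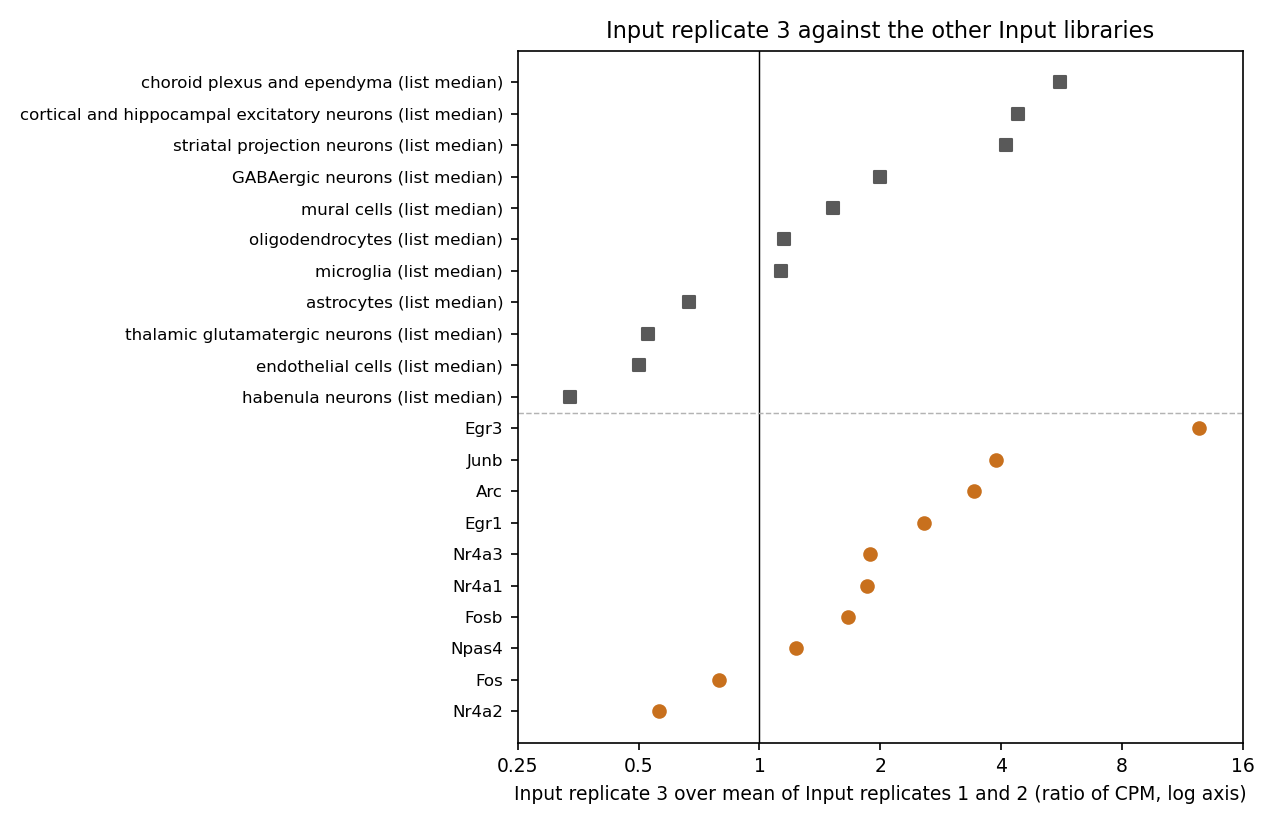
Ratio of Input replicate 3 to the mean of Input replicates 1 and 2 (log axis) for each member (orange circles) and as the median of each marker list (grey squares). Egr3, Junb, Arc and Egr1 lie at 2.57 or above, beside list medians of 5.60, 4.40 and 4.11 for choroid plexus, cortical and striatal markers.

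Leaving out Input replicate 3 changed which members were called. Without it Egr1 was called higher, Fos was not, and Nr4a2 was the only member called lower, against 9.48% of tested genes called higher and 15% called lower. The median log2 fold change of the 10 members was then 0.63, against -0.07 over all tested genes. The members were chosen with their pattern in Input replicate 3 known, so this shift is not an independent result. Without both libraries of replicate 3 the lower members were Nr4a2 and Arc (14.3% of tested genes) and 0 were higher (5.7% of tested genes). At an unadjusted edgeR p under 0.05, 2 were higher, a threshold at which no share of all genes was taken. With the replicate block on all 6 libraries the called members were the 3 of the fit without it (Fos higher, Nr4a2 and Arc lower), where 15.9% of tested genes were called higher and 19.2% lower. The block fit of replicates 1 and 2 alone, added after seeing the data, called Fos, Fosb and Egr1 higher and Nr4a2 and Arc lower, against 17.8% and 22.3% of tested genes.

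**Figure D4:**
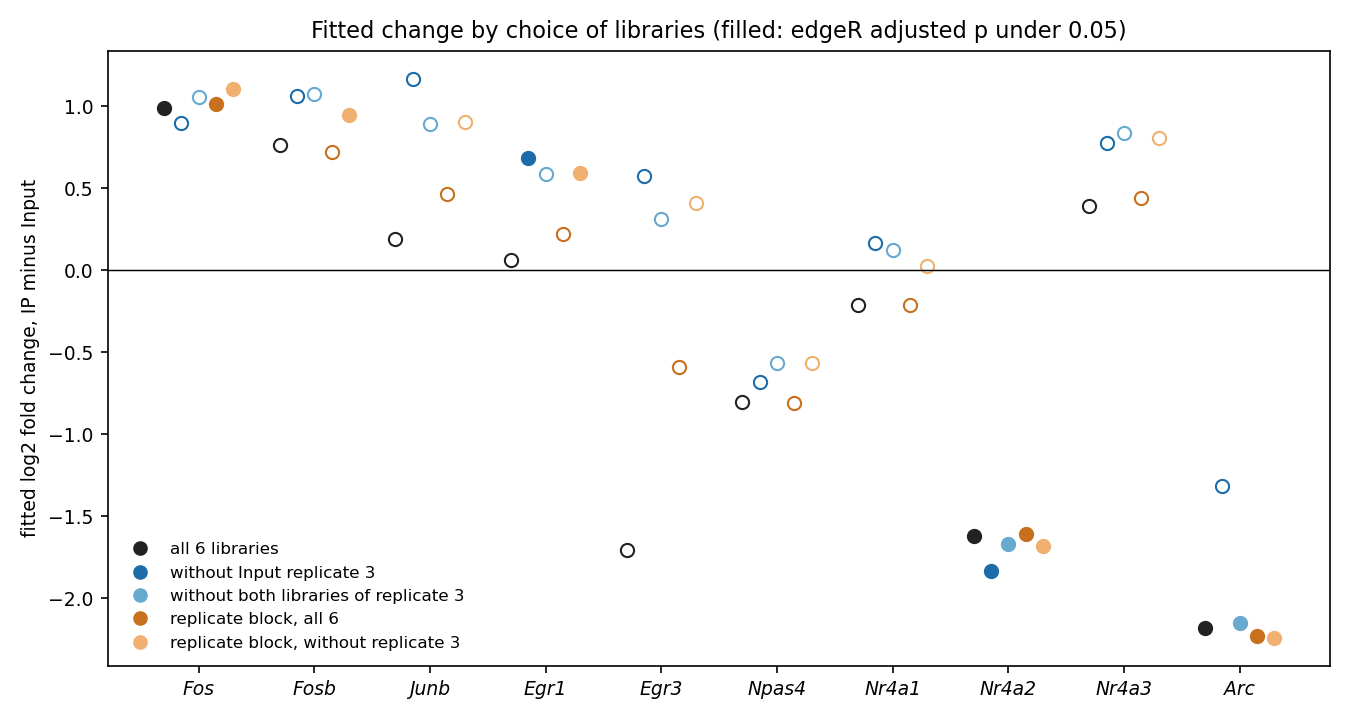
Fitted log2 fold change of IP minus Input for each member under 5 choices of libraries and block, filled where the edgeR adjusted p is under 0.05. Nr4a2 is filled under each choice shown and Arc under each but the one without Input replicate 3, while Egr3 changes sign when Input replicate 3 is left out.

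Genes around the members were read from lists of other immediate-early factors, activity-regulated effectors, upstream regulators, dimer partners and Arc-binding proteins. Their counts stand beside 9.6% of all tested genes called higher and 15.6% lower, and 15.9% and 19.2% in the block fit. Of 22 tested other immediate-early transcription factors, 1 was higher in IP (6 in the block fit) and 0 were lower, and the median log2 fold change was 0.42. At an unadjusted edgeR p under 0.05 the counts were 6 and 0, a threshold at which no share of all genes was taken. DESeq2 called 4 and 0, against 12.7% and 19.8% of all tested genes, and limma-voom 3 and 0, against 10.6% and 16.5%. The higher one was Crem, a CREB-family gene with activity-induced repressor forms, which averaged 15.2 ± 1.09 CPM over the Input libraries and 28.2 ± 3.10 CPM over the IP libraries (SD, n = 3) and rose by log2 0.89 ± 0.21 (SE; edgeR adjusted p = 0.0174). Its call held in 5 of 9 fits without libraries (edgeR adjusted p up to 0.247). Egr4, the paralogue of Egr3, was not called, and its level in Input replicate 3 was 18.1 times that of replicates 1 and 2. Egr2 and Atf3, chosen after their values were seen, stood at 12.1 and 11.9 times. Over the 22 tested genes of this list the median ratio was 1.19, with 6 genes at 2 or more and 8 under 1. Of all tested genes 10.8% reached 2.

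Of 26 tested effectors of activity, 2 were higher and 1 was lower (4 and 1 in the block fit), and the median log2 fold change was 0.31. Dusp5, a MAP kinase phosphatase gene, averaged 0.537 ± 0.137 CPM over Input and 2.82 ± 0.328 CPM over IP (SD, n = 3), a rise by log2 2.39 ± 0.59 (SE; edgeR adjusted p = 0.0197). Nptx2, a secreted pentraxin that clusters AMPA receptors, rose by log2 1.32 ± 0.35 (edgeR adjusted p = 0.0268). Inhba, an activin subunit gene, was lower at log2 -2.27 ± 0.67 (edgeR adjusted p = 0.0375), with Input replicate 3 at 4.19 times the other Inputs. Without libraries these 3 calls ended in some fits (edgeR adjusted p up to 0.157, 0.142 and 0.144), and the Inhba value was -1.22 without Input replicate 3. Over the 26 effectors the median ratio of Input replicate 3 to the other Inputs was 0.922. It was 2 or more for 4 of them and under 1 for 15.

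Of 20 upstream regulators, 2 were higher and 4 lower (4 and 5 in the block fit), and the median was -0.12. Srf, the serum response factor that binds the CArG box, rose by log2 0.88 ± 0.25 (SE; edgeR adjusted p = 0.0311), and Mapk3, the ERK1 kinase, rose by 0.66. Elk4, an SRF cofactor gene, averaged 65.8 ± 7.89 CPM over Input and 32.2 ± 5.82 CPM over IP (SD, n = 3), at log2 -1.03 ± 0.21 (edgeR adjusted p = 0.00988). Camk4, the nuclear kinase of CREB, had -0.99 ± 0.24 (edgeR adjusted p = 0.0168). Leaving out libraries ended each of these 4 calls in some fit (edgeR adjusted p up to 0.204 for Srf, 0.275 for Mapk3, 0.112 for Elk4 and 0.0833 for Camk4). The other lower genes, named after their values were seen, were Creb1 and its coactivator gene Crebbp, at -0.62 and -0.61 (edgeR adjusted p = 0.0481 and 0.0459), and neither call held in any of 9 fits without libraries (edgeR adjusted p up to 0.234 and 0.191). Transcripts of upstream regulators went both ways.

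Of 9 dimer partners and corepressors, 0 were higher and 2 were lower (2 and 2 in the block fit), and the median was 0.28. At an unadjusted edgeR p under 0.05, 2 were higher, again with no share of all genes taken. DESeq2 called 0 higher and limma-voom 1, against 12.7% and 10.6% of all tested genes. The 2 lower genes were the partners of NPAS4, Arnt and Arnt2. Arnt averaged 75.0 ± 11.1 CPM over Input and 22.5 ± 4.53 CPM over IP (SD, n = 3), at log2 -1.73 ± 0.23 (SE; edgeR adjusted p = 0.00149), a call that passed in 19 of 19 alternatives. Arnt2, the neuronal form, fell by 0.79 on the log2 scale (edgeR adjusted p = 0.0184, and up to 0.143 without libraries).

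Of 7 genes of Arc-binding proteins, 1 was higher and 1 was lower (2 and 1 in the block fit), and the median was 0.42. Dnm2, the dynamin of endocytic vesicles, averaged 37.0 ± 12.9 CPM over Input and 6.26 ± 2.10 CPM over IP (SD, n = 3), at log2 -2.56 ± 0.36 (SE; edgeR adjusted p = 0.00206). It passed in 19 of 19 alternatives. Cacng2, stargazin, an AMPA receptor auxiliary subunit, rose by log2 0.70 ± 0.20 (edgeR adjusted p = 0.0334, and up to 0.257 without libraries).

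**Figure D5:**
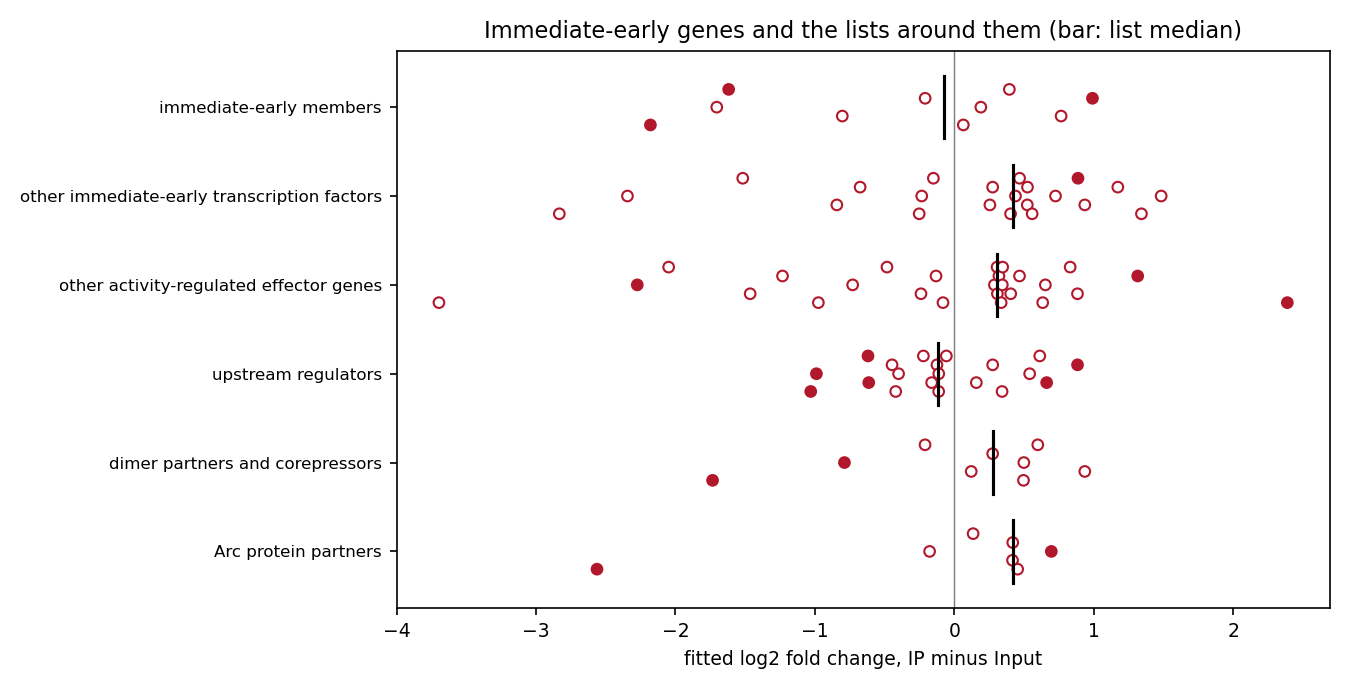
Fitted log2 fold change of IP minus Input for each tested gene of the immediate-early set and of the 5 lists around it, filled where the edgeR adjusted p is under 0.05, with a bar at each list's median. The medians lie between -0.12 and 0.42, and called genes lie on both sides of 0.

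For each member the 2 genes with the nearest profile over the 6 libraries were found among 14066 genes of at least 1 CPM, by the distance between centred log2 profiles. Fos lay nearest to Kcnj12, an inward rectifier potassium channel gene, and Olfm1, at distances of 0.200 and 0.218. Nr4a2 lay nearest to Neb and Als2cl, at 0.266 and 0.377. The nearest genes of Arc were Oprd1, the delta opioid receptor, and Sst, somatostatin, at 0.723 and 0.779, farther than the nearest genes of any other member. Egr3 lay nearest to Egr4 and Emx2, at 0.495 and 0.677. Egr1 lay nearest to Slmo1 and Lyrm1, Junb to Rinl and Hmgn3, Fosb to 2410015M20Rik and Epn1, Npas4 to Glcci1 and Ric1, Nr4a1 to Slc29a2 and AK038603, and Nr4a3 to Usp12 and Il17d, at 0.105 to 0.491. These are likenesses over 6 libraries among many genes and are given as a description.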

How the data were processed

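Each of the 6 libraries has a deposited table of raw read counts by gene. Alignment with STAR 2.0.0e to mm10 and counting with HTSeq are named in the submitters' processing notes, and neither annotation nor counting mode nor strand is given in those sources. Summary rows and a row named unknown were left out. On average, ambiguous records were 1.79% of IP and 9.34% of Input, and alignments at more than 1 place were 40.8% and 25.8%.

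IP was compared with Input by the two-sided quasi-likelihood test of edgeR 4.0.16 in R 4.3.3, after filterByExpr and TMM scaling, with Benjamini-Hochberg adjustment over all tested genes. Groups and replicate numbers came from the titles. The members and lists were chosen with earlier results of these data known. The named genes were all members, up to 4 called genes of at least 1 CPM per list by size of change, and the 2 nearest profiles per member, on log2(CPM + 0.5). Same-numbered libraries deviated together (correlations across genes of 0.410, 0.181 and 0.216), so the titles' numbers were taken to pair them. No 2 libraries of a group agreed within sampling noise. Alternatives were other scalings and filters, DESeq2 1.42.0, limma-voom (limma 3.58.1), the replicate block, clone-accession features left out, and leaving out libraries. Exon lengths came from GENCODE M21.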

Additional observations from a re-analysis of the deposited data

How the results depend on the processing

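Scaling, filter and tool kept the direction of every member but Egr1, which was -0.019 with upper-quartile factors, and DESeq2 added Npas4 to the lower calls. Genes called higher in IP numbered 2624 with the replicate block and 3026 with the replicate block on replicates 1 and 2 alone, against 1583 and 972 in the same libraries without it. Over the 9 fits that left out 1 library or 1 replicate number this count ran from 83 to 1640, and the count of lower genes from 651 to 2598, the lowest in each case without replicate 2 of both groups. In those fits 0 to 1 members were higher and 0 to 2 lower. With upper-quartile factors 0 members were higher (Fos had an edgeR adjusted p of 0.05001, and 1 was higher at an unadjusted edgeR p under 0.05), and 3 were with the replicate block on replicates 1 and 2 alone. Of all tested genes 7.22% and 17.8% were called higher in these 2 fits. Without libraries the log2 fold change ran from -0.19 to 1.17 for Junb, -0.21 to 0.68 for Egr1, -2.22 to 0.58 for Egr3 and -0.54 to 0.16 for Nr4a1. With the replicate block on replicates 1 and 2 alone Egr3 was 0.41 and Nr4a1 0.027. The cause of these shifts was not tested. The replicate block on all 6 libraries changed no call among the members. No ratio of Input replicate 3 to the other Inputs moved by more than the spread of the Input libraries under other scalings. Depth limited Junb most, at 45 reads in Input replicate 1.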

Other observations

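With the replicate block, 6 of the 22 tested other immediate-early transcription factors were higher in IP and 0 were lower, against 15.9% and 19.2% of all tested genes. Besides Crem these were Jund, Ier2, Ier3, Mafk and Bhlhe40, which are named after their values were seen. Jund, an AP-1 subunit, averaged 25.8 ± 14.4 CPM over Input and 49.4 ± 7.87 CPM over IP (SD, n = 3), with a log2 fold change of 1.08 ± 0.27 (SE) in the block fit (edgeR adjusted p = 0.0109) and 0.94 ± 0.38 without the block (edgeR adjusted p = 0.107). Its level in Input replicate 3 was 2.30 times that of replicates 1 and 2. Ier2, Ier3, Mafk and Bhlhe40 went the other way, at 0.400, 0.267, 0.301 and 0.477 times. Bhlhe40, a basic helix-loop-helix repressor gene, had a log2 fold change of 0.82 in the block fit (edgeR adjusted p = 0.00698) and 0.73 without it (edgeR adjusted p = 0.129).

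Across the 6 libraries the centred log2 profiles of Fos and Arc ran against each other (Pearson r = -0.88, as a description without a test), with Fos higher and Arc lower in IP. Egr1 ran with Junb and Egr3 (r = 0.95 and 0.89), all of which were highest in Input replicate 3, and Fosb ran with Nr4a3 (r = 0.91). The pairs named are the extremes among all pairs of members, and the members were chosen with the Input replicate 3 pattern known. The 6 points share library depth and the same 2 groups.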
